A study of Mus musculus with 26 samples.

Results

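Gadd45a, Gadd45b, Gadd45g, Myc, Cdkn1a and Btg2 were described in retinas and rods of the rd10 mouse, whose rods die because of a mutation in Pde6b, the gene of a subunit of the rod phosphodiesterase. The 6 genes were found among 37991 genes of the count table by their symbols, and each symbol had 1 Ensembl ID. Gadd45a, Gadd45b and Myc were selected on their changes under UNC0642 and Romidepsin, and Gadd45b also on its change in sorted rods, so the values of all 6 genes in those 3 comparisons are a description with no test. The DZNep and UNC1999 comparisons were tested.

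RNA-seq was carried out on 22 whole retinas of rd10 mice (B6.CXB1-Pde6b rd10) and on 4 samples of rods sorted by EGFP from rd10 mice crossed with B6.Cg-Tg(Nrl-EGFP)1Asw/J, in which EGFP is driven by the promoter of Nrl, a rod transcription factor gene. Mice received intraperitoneal injections of an inhibitor or of saline from postnatal day 9, DZNep less often after the first days, and samples were collected at postnatal day 24. The retinas formed 4 experiments, each with its own controls: 4 control and 2 DZNep, 3 control and 3 UNC1999, 2 control and 2 UNC0642, and 3 control and 3 Romidepsin retinas. The rods formed the other experiment, with 2 control and 2 GSK2879552 samples. The study describes DZNep and UNC1999 as inhibitors of EZH2, the methyltransferase of histone H3 lysine 27, with UNC1999 the more specific. UNC0642 inhibits EHMT2 and EHMT1, methyltransferases of histone H3 lysine 9, Romidepsin inhibits histone deacetylases, and GSK2879552 inhibits LSD1, a histone demethylase. All mice carried the rd10 mutation, and a wild-type group was not analysed here. UNC1999 was given in a vehicle of DMSO, PEG300 and Tween in saline, and the study's methods name saline as the control and elsewhere only the diluent. If the UNC1999 controls received saline, vehicle and compound cannot be told apart there.

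The 3 Gadd45 proteins are small stress-induced proteins that bind p21, cyclin-dependent kinase 1, PCNA and the kinase MTK1 (Map3k4), and take part in growth arrest, DNA repair and active DNA demethylation. Cdkn1a encodes p21, an inhibitor of cyclin-dependent kinases induced by p53, and Btg2 is a p53-induced antiproliferative protein that recruits the CCR4-NOT deadenylase to mRNAs. Myc, a transcription factor of growth and proliferation, represses Cdkn1a and Gadd45a in dividing cells, but rods are postmitotic, and in neurons and glia all 6 genes are also known as rapidly induced stress-response genes.

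Gadd45a (ENSMUSG00000036390) lies on the minus strand at chr6:66985090-66987451 of NCBIM37, the build of the counts. Gadd45b (ENSMUSG00000015312) lies at chr10:80392836-80394949 and Gadd45g (ENSMUSG00000021453) at chr13:51942047-51943837, both on the plus strand. Myc (ENSMUSG00000022346) lies at chr15:61816946-61821929 and Cdkn1a (ENSMUSG00000023067) at chr17:29227924-29237667, on the plus strand, and Btg2 (ENSMUSG00000020423) at chr1:135971747-135975697 on the minus strand. Counts were of reads in exons of these protein-coding genes. Gadd45a shares 337 exonic bases with E230016M11Rik on the opposite strand, and whether counting used strand is not given in the sources used here, so reads of the pair cannot be told apart and values of Gadd45a are uncertain to that extent.

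The bases upstream of the start sites are shown because the 3 Gadd45 genes and Btg2 moved unequally in these data. The sequences are from RefSeq (GRCm38.p6) and end at the base before the start site. Of the 6 members, 5 had an entry, and Myc had none. Capitals mark matches, searched on both strands and none overlapping another, to these motifs. The box bound by NF-Y reads CCAAT, and the core of the TATA box was searched as TATAAA. The E-box bound by Myc-Max dimers reads CACGTG. The cAMP response element (CRE) reads TGACGTCA.
Gadd45a, chr6:67037408-67037657, minus strand: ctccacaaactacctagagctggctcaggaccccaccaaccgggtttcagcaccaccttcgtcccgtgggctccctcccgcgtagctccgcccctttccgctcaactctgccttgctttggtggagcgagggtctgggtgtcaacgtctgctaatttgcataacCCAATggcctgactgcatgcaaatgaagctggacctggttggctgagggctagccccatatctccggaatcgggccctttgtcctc
Gadd45b, chr10:80929841-80930090, plus strand: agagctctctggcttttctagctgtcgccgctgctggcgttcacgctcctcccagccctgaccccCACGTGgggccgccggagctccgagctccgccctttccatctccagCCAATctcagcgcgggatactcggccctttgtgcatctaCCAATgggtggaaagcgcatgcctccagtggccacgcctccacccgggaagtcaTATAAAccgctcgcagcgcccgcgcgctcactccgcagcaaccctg
Gadd45g, chr13:51846425-51846674, plus strand: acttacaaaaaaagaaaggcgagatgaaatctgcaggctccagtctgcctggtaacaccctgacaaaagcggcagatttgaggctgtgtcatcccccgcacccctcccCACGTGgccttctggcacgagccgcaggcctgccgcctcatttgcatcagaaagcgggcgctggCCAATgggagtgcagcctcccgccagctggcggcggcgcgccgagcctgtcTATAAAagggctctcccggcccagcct
Btg2, chr1:134079156-134079405, minus strand: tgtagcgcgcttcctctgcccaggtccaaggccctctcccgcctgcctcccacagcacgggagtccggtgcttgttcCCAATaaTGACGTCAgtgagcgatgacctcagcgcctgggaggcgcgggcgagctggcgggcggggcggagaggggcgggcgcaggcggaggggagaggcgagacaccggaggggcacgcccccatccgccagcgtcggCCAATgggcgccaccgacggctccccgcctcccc
Over windows of 250 bases before and 50 after the start, Gadd45b and Gadd45g both held an E-box, found in 7.15% of the 32851 RefSeq windows, and a TATA box, found in 13.6%. Gadd45a held neither. All 3 Gadd45 windows held CCAAT, which stands in 37.4% of windows, at position -86 from the start site in Gadd45a, -139 and -100 in Gadd45b and -78 in Gadd45g. Btg2 held a CRE at position -166, found in 1.79% of windows, and CCAAT at -173 and -34. The AP-1 motif TGANTCA, found in 7.81% of windows, was in none of these windows, and neither of the 2 Cdkn1a windows held a TATA box, CCAAT, an E-box or a CRE. The GC box GGGCGG, not in capitals above and found in 35.7% of windows, was in the Gadd45a, Gadd45b and Btg2 windows and in 1 Cdkn1a window. A match is a description of letters and not a bound site.

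Counted reads ran from 13732959 to 36354094 per retina and from 7289460 to 19864491 per rod library, so that 3 counts stood for 0.0825 to 0.218 CPM (counts scaled to a common library size) in retinas and 0.151 to 0.412 CPM in rods. All values below are CPM with TMM scaling, over the 22 retinas together and over the 4 rod libraries together, listed by replicate. SDs are between biological replicates, and the floor of 3 counts covers counting error only. Intervals are those of the edgeR fits, which include variation between biological replicates. The cell types the labels name were seen in part in the markers. The summed CPM of 12 rod markers was 54990 to 83990 in sorted rods and 8557 to 73000 in retinas, and these ranges overlapped. The 10 microglial markers summed to 59.5 to 75.6 in rods and 144 to 722 in retinas. Müller glia markers summed to 293 to 508 CPM in rods against 4667 to 10640 in retinas. Bipolar cell markers summed to 889 to 1255 CPM in rods against 1559 to 2391 in retinas. Cone markers were not lower in rods, at 1676 to 4563 CPM against 1230 to 2886 in retinas. In whole retina, fewer cells of a type and less RNA per cell cannot be told apart.

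**Figure D1:**
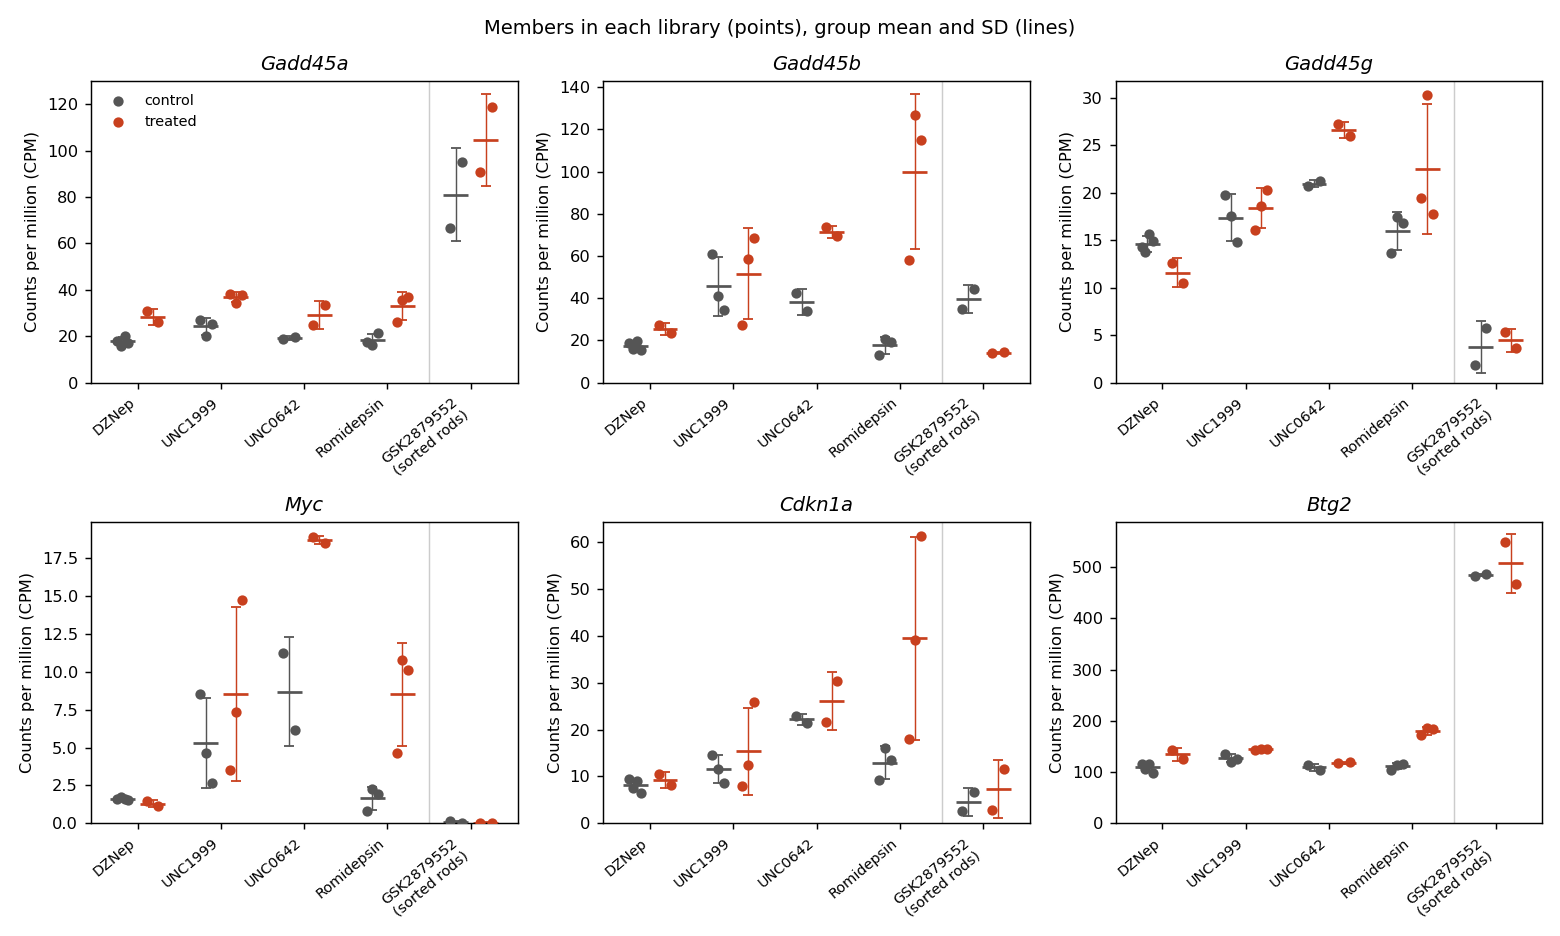
Level of each of the 6 genes in each library, in CPM on a linear axis from 0. Points are libraries, horizontal lines are group means and bars are SDs; control libraries are grey and treated libraries orange. Gadd45b is at 58.1 to 127 CPM in the Romidepsin retinas and at 14.0 and 14.4 CPM in the GSK2879552 rods.

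Gadd45b, the member that also limits inflammatory and JNK signalling, had the largest difference of the 6 genes in the Romidepsin and the sorted-rod comparisons, in opposite directions. In the Romidepsin experiment Gadd45b was at 13.0, 20.8 and 19.3 CPM in control retinas and at 58.1, 127 and 115 CPM in treated retinas. Every treated library was above every control, and the fitted log2 fold change was 2.49 (SE 0.30). In sorted rods Gadd45b was at 34.9 and 44.3 CPM in controls and at 14.0 and 14.4 CPM after GSK2879552. Both treated rod libraries were below both controls, with a log2 fold change of -1.48 (SE 0.27), or -1.30 without control replicate 2. Gadd45b was the member of the 6 whose treated rods did not overlap the controls. For comparison, 33.2% of all genes tested in rods had treated libraries on one side of the controls.

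Gadd45b under UNC0642 was at 42.6 and 33.9 CPM in controls and at 73.6 and 69.6 CPM in treated retinas. The groups did not overlap, and the log2 fold change was 0.90 (SE 0.12). Both UNC0642 controls were above all controls of the Romidepsin and DZNep experiments for this gene, and against the 9 controls of the 3 experiments of that library series together the log2 fold change was 1.69. In the DZNep experiment Gadd45b was at 18.6, 16.2, 19.8 and 15.4 CPM in controls and at 27.5 and 23.5 CPM in treated retinas, again with no overlap. Gadd45b rose by 0.55 on the log2 scale (SE 0.11, adjusted p = 0.00945 by edgeR's quasi-likelihood test), under the 2-fold limit of a call. Without DZNep replicate 1 its adjusted p was 0.129. Under UNC1999 Gadd45b was at 61.2, 41.2 and 34.4 CPM in controls and at 27.5, 58.7 and 68.6 CPM in treated retinas. These ranges overlapped, and the log2 fold change of 0.18 had a 95% interval from -0.58 to 0.95 (adjusted p = 0.780, edgeR).

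Gadd45a, the p53-induced member of the family, was higher in treated than in control retinas in all 4 retina experiments, by a log2 fold change of 0.59 to 0.84. Under DZNep it was at 18.1, 15.8, 19.9 and 17.2 CPM in controls and at 30.7 and 26.0 CPM in treated retinas. Gadd45a rose by 0.68 on the log2 scale (SE 0.10, adjusted p = 0.00247, edgeR). Under UNC1999 it was at 27.2, 20.2 and 25.3 CPM in controls and at 38.3, 34.5 and 37.9 CPM in treated retinas. The 3 treated retinas were above all 3 controls, with a log2 fold change of 0.60 (SE 0.12), but the adjusted p of 0.0562 missed the threshold of 0.05. By the likelihood ratio test of edgeR, the test the study used, the adjusted p for UNC1999 was 0.00098.

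Gadd45a under Romidepsin was at 17.5, 16.3 and 21.3 CPM in controls and at 26.3, 35.8 and 37.1 CPM in treated retinas (log2 fold change 0.84, SE 0.17). Under UNC0642 it was at 18.8 and 19.8 CPM in controls and at 24.8 and 33.4 CPM in treated retinas (log2 fold change 0.59, SE 0.15). Neither pair of groups overlapped, and without treated replicate 2 the UNC0642 value was 0.36. In sorted rods Gadd45a was at 66.7 and 95.1 CPM in controls and at 90.6 and 119 CPM in treated samples. Those ranges overlapped, and the log2 fold change of 0.37 had a 95% interval from -0.21 to 0.94.

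Gadd45g, the member best known from neural development, differed by 0.48 or less on the log2 scale in the retina comparisons. Under DZNep it was at 14.3, 13.7, 15.7 and 14.9 CPM in controls and at 12.7 and 10.5 CPM in treated retinas, both below all controls. Gadd45g fell by 0.33 on the log2 scale (SE 0.10, adjusted p = 0.0468, edgeR), and the adjusted p was 0.0605 by the likelihood ratio test and 0.0823 by DESeq2. The adjusted p was above 0.05 on leaving out control replicate 2, 3 or 4 (0.0682, 0.104 and 0.0877, edgeR) or treated replicate 1 or 2 (0.0645 and 0.227, edgeR), with log2 fold changes of -0.36, -0.30, -0.32, -0.49 and -0.22 in that order. Under UNC1999 Gadd45g was at 19.8, 17.6 and 14.8 CPM in controls and at 16.1, 18.7 and 20.3 CPM in treated retinas, with a log2 fold change of 0.08 (95% interval -0.24 to 0.39, adjusted p = 0.775, edgeR). The UNC1999 groups overlapped.

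Gadd45g was on the other side of its controls under UNC0642 and Romidepsin. It was at 20.7 and 21.3 CPM in UNC0642 controls and at 27.2 and 26.1 CPM in treated retinas (log2 fold change 0.34, SE 0.09). It was at 13.7, 17.5 and 16.9 CPM in Romidepsin controls and at 19.5, 30.3 and 17.7 CPM in treated retinas (log2 fold change 0.48, SE 0.21). Under Romidepsin treated replicate 2 stood above the other libraries, and the lowest treated library was just above the highest control. In sorted rods Gadd45g was low, at 1.87 and 5.74 CPM in controls and 5.30 and 3.63 CPM in treated samples, with counts of 14 to 102. The rod groups overlapped, and the log2 fold change of 0.20 had a 95% interval from -1.16 to 1.56.

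**Figure D2:**
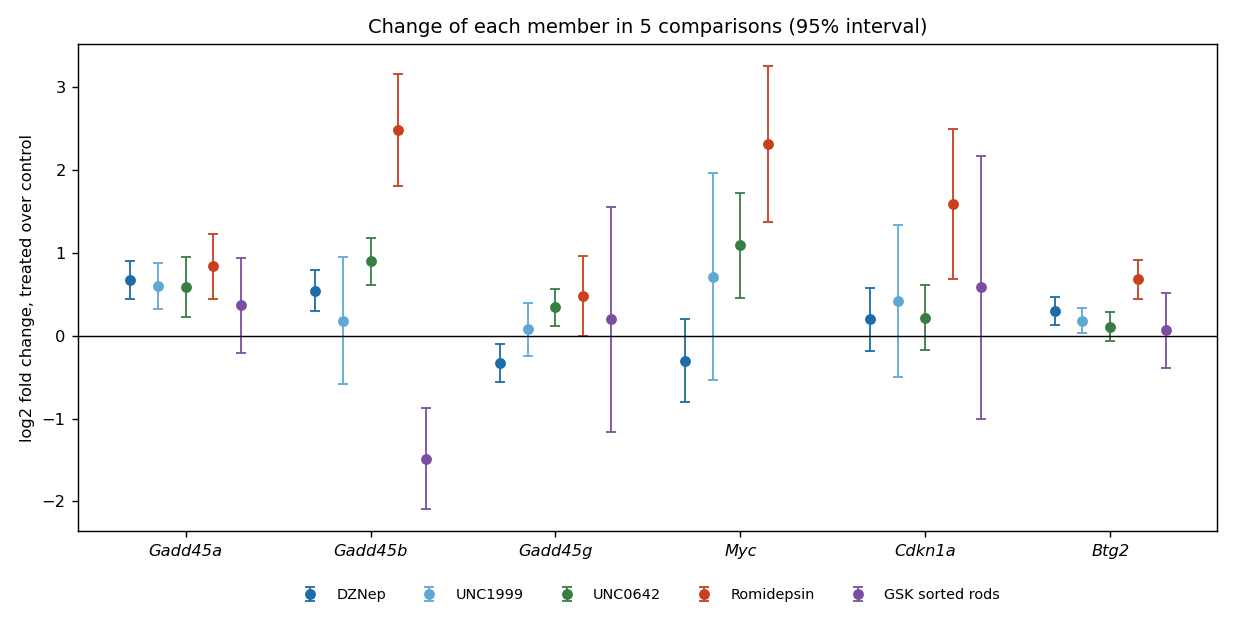
Log2 fold change of each member, treated over control, in the 5 comparisons, with the 95% interval of the edgeR fit. Gadd45b lies between 0.18 and 2.49 in the retina comparisons and at -1.48 in sorted rods; Myc was not fitted in rods.

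Myc had the widest range of levels among control retinas, 14.0-fold. Under Romidepsin it was at 0.804, 2.25 and 1.95 CPM in controls and at 4.63, 10.8 and 10.1 CPM in treated retinas (log2 fold change 2.31, SE 0.41). Under UNC0642 it was at 11.2 and 6.13 CPM in controls and at 18.9 and 18.5 CPM in treated retinas (log2 fold change 1.09, SE 0.26). Treated libraries were above all controls of their own experiment in both. Both UNC0642 controls were above the lowest Romidepsin-treated retina, and without control replicate 1 the UNC0642 value was 1.60. Against the 9 controls of that library series together, the log2 fold changes were 2.52 for UNC0642 and 1.35 for Romidepsin.

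Under DZNep Myc was low throughout, at 1.63, 1.73, 1.64 and 1.55 CPM in controls and at 1.47 and 1.14 CPM in treated retinas. Both treated retinas were below all controls, but the log2 fold change of -0.30 did not pass the test (95% interval -0.80 to 0.20, adjusted p = 0.379, edgeR). Under UNC1999 Myc was at 8.54, 4.65 and 2.70 CPM in controls and at 3.51, 7.36 and 14.8 CPM in treated retinas. These groups overlapped, with a log2 fold change of 0.71 (95% interval -0.54 to 1.97, adjusted p = 0.464, edgeR). In sorted rods Myc had 1 and 0 counts in controls and 1 and 0 counts after GSK2879552. All 4 were under the floor of 3 counts, so Myc was not detectable at this depth in rods and no fold is given.

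Cdkn1a, which encodes p21, differed most under Romidepsin, where it was at 9.24, 16.1 and 13.5 CPM in controls and at 18.0, 39.0 and 61.3 CPM in treated retinas. Every treated library was above the controls, with a 3.41-fold spread among treated libraries and a log2 fold change of 1.59 (SE 0.40). Under UNC0642 it was at 23.0 and 21.3 CPM in controls and at 21.6 and 30.3 CPM in treated retinas. Those groups overlapped (log2 fold change 0.22, SE 0.16). Under DZNep Cdkn1a was at 9.46, 7.61, 8.96 and 6.52 CPM in controls and at 10.4 and 8.08 CPM in treated retinas. Under UNC1999 it was at 14.6, 11.7 and 8.53 CPM in controls and at 7.94, 12.4 and 25.8 CPM in treated retinas. Neither passed the test, with log2 fold changes of 0.20 (95% interval -0.18 to 0.58, adjusted p = 0.421, edgeR) under DZNep and 0.42 (95% interval -0.50 to 1.34, adjusted p = 0.567, edgeR) under UNC1999. In sorted rods Cdkn1a was at 2.54 and 6.73 CPM in controls and at 2.91 and 11.6 CPM in treated samples, overlapping, with a log2 fold change of 0.58 and a 95% interval from -0.999 to 2.17.

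Btg2 had the narrowest range of levels among control retinas, 1.37-fold. Under DZNep it was at 115, 106, 117 and 98.9 CPM in controls and at 143 and 126 CPM in treated retinas, all above the controls. Btg2 rose by 0.30 on the log2 scale (SE 0.08, adjusted p = 0.0236, edgeR), and its adjusted p was 0.0660 without control replicate 2 and 0.232 without treated replicate 1. Under UNC1999 it was at 135, 120 and 126 CPM in controls and at 144, 146 and 146 CPM in treated retinas. The groups did not overlap, but the log2 fold change of 0.18 did not pass the test (95% interval 0.03 to 0.33, adjusted p = 0.140, edgeR). Under Romidepsin Btg2 was at 105, 114 and 116 CPM in controls and at 172, 186 and 183 CPM in treated retinas (log2 fold change 0.68, SE 0.10). The Romidepsin retinas were the highest of all retinas for this gene. Under UNC0642 it was at 114 and 104 CPM in controls and at 117 and 119 CPM in treated retinas (log2 fold change 0.11, SE 0.07). In sorted rods it was at 483 and 486 CPM in controls and at 548 and 466 CPM in treated samples, overlapping (log2 fold change 0.07, 95% interval -0.39 to 0.52).

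Counted over the members, 4 of 6 passed an adjusted p of 0.05 under DZNep, 3 higher (Gadd45a, Gadd45b, Btg2) and 1 lower (Gadd45g), where 22.7% of all genes tested passed. None of the 6 reached a call at adjusted p under 0.05 and a log2 fold change beyond 1 under DZNep, which 1.71% of genes did. Under UNC1999 0 of 6 passed by edgeR's quasi-likelihood test, with or without the fold limit, where 0.368% and 0.602% of genes did. At an unadjusted p under 0.05 by edgeR, 2 of 6 members, Gadd45a and Btg2, passed under UNC1999, against 23.6% of all genes, and the adjusted p of Gadd45a was below 0.05 by DESeq2 (0.000764). In the other 3 comparisons the members were selected on their changes, so nothing is read from their counts. There Gadd45b alone met the limits of a call under Romidepsin (all genes 0.561%, or 0.748% without the fold limit), and did not meet them without control replicate 2, control replicate 3 or treated replicate 3. No member met them under UNC0642 or in sorted rods, where edgeR's quasi-likelihood test called 0% of all genes. At an unadjusted p under 0.05 by that test stood 14.7% of all genes under UNC0642 and 4.91% in rods. The study used edgeR's likelihood ratio test and named Gadd45b among the genes lower in sorted rods after GSK2879552. The likelihood ratio test called 0.470% of all genes in rods here.

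Treated and control libraries were separate for 6 of 6 members under Romidepsin, all higher in treated retinas, against 25.9% of all genes in either direction. The count was 5 of 6 under UNC0642, all higher (all genes 52.1%), 3 higher and 2 lower under DZNep (all genes 46.1%), and 2 of 6 under UNC1999, both higher (all genes 27.4%). With 2 libraries in an arm such separation is common over all genes. Members were selected on their changes under Romidepsin and UNC0642, so nothing is read from the counts of those comparisons.

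Because DZNep and UNC1999 are both described as EZH2 inhibitors, the difference of their changes was fitted with each experiment's own controls. None of the 6 differences passed (adjusted p = 0.638 to 0.965, edgeR, over 17274 genes, of which 0.00579% were called). The difference for Gadd45a, DZNep minus UNC1999, was 0.07 on the log2 scale with a 95% interval from -0.37 to 0.52. For Btg2 it was 0.11 (-0.11 to 0.34) and for Gadd45g -0.41 (-0.91 to 0.10). The intervals for Gadd45b (-0.54 to 1.27), Cdkn1a (-1.42 to 0.98) and Myc (-2.54 to 0.54) each left room for a 2-fold difference in one direction. The compounds were given on different schedules and their retinas were in different library series, which cannot be told apart from the compound.

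Controls differed between experiments for the members that differed most under treatment. Over the 12 control retinas Myc ranged from 0.804 to 11.2 CPM and its group mean from 1.64 CPM in the DZNep experiment to 8.68 CPM in the UNC0642 experiment, a ratio of 5.30. Group means of controls spanned 2.72-fold for Cdkn1a and 2.61-fold for Gadd45b. They spanned 1.43-fold for Gadd45g, 1.36-fold for Gadd45a and 1.17-fold for Btg2. The 2 UNC0642 controls also stood apart in cell markers, with rod markers at 8557 and 8694 CPM summed against 15370 to 39560 CPM in the other control retinas. Their 8 reactive gliosis markers summed to 4497 and 5421 CPM, against 1112 to 3811 CPM in the other controls.

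In some groups the same libraries were highest or lowest for Gadd45b, Myc and Cdkn1a, and in others they were not. In the UNC1999 experiment the same control library, replicate 1, was highest and the same one, replicate 3, lowest for all 3 genes and for Gadd45g. Treated replicate 3 was the highest and treated replicate 1 the lowest of its group for the same 4 genes. Without treated replicate 3, the UNC1999 log2 fold change was -0.08 for Gadd45b and -0.19 for Cdkn1a. In the Romidepsin experiment control replicate 1 and treated replicate 1 were the lowest of their groups for Gadd45b, Myc and Cdkn1a. In DZNep controls a different library was highest for each of these genes. In UNC0642-treated retinas Gadd45b and Myc were higher in replicate 1 and Cdkn1a in replicate 2.

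**Figure D3:**
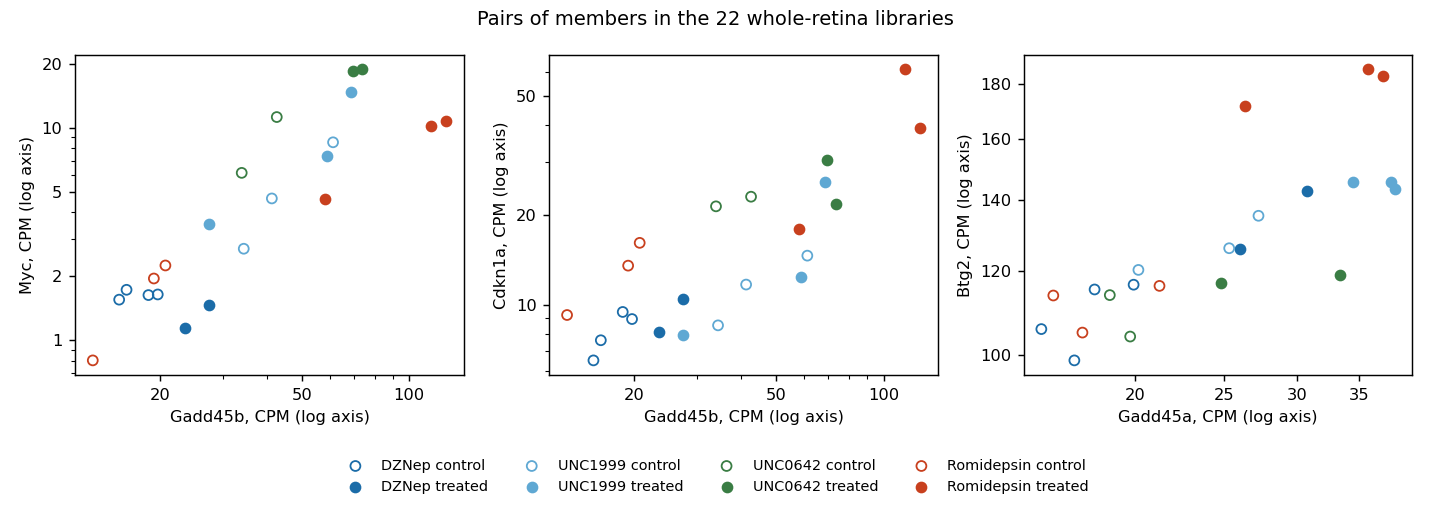
Levels of 3 pairs of members in the 22 whole-retina libraries, both axes in CPM on log scales. Open points are controls and filled points treated retinas, coloured by experiment. The highest Gadd45b, 127 and 115 CPM, is in 2 Romidepsin-treated retinas, and the highest Myc, 18.9 CPM, is under UNC0642.

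Cell markers differed between treated and control retinas beside the members, and their sums are given as control against treated ranges. Rod markers were 18830 to 31810 against 58700 to 60660 CPM for DZNep and 21030 to 39560 against 54020 to 73000 CPM for UNC1999. They were 15370 to 24890 against 25370 to 32600 CPM for Romidepsin and 8557 to 8694 against 8922 to 13470 CPM for UNC0642. Treated retinas were thus above their own controls in rod markers in all 4 experiments.

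Müller glia markers were 9713 to 10070 against 6711 to 7577 CPM for DZNep, where all 8 genes fell at an adjusted p under 0.05 by edgeR. They were 8983 to 10640 against 6077 to 7164 CPM for Romidepsin, 6826 to 7467 against 5125 to 5604 CPM for UNC0642, and overlapped at 5049 to 7285 against 4667 to 6989 CPM for UNC1999. Microglial markers were 217 to 417 against 185 to 203 CPM for DZNep, 233 to 368 against 144 to 183 CPM for UNC1999, 555 to 722 against 357 to 481 CPM for UNC0642 and 390 to 630 against 329 to 500 CPM for Romidepsin. Treated sums of microglial markers were thus below all controls except for Romidepsin, where the ranges overlapped. Under Romidepsin too, none of the 10 log2 fold changes was above 0 (median -0.68), and 0 passed an adjusted p of 0.05 by edgeR.

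Markers of the retinal pigment epithelium, the layer beneath the retina, were 469 to 694 against 910 to 1091 CPM for UNC1999, where 7 of 10 were called higher. They were 656 to 758 against 387 to 516 CPM for Romidepsin, 558 to 652 against 656 to 735 CPM for UNC0642, and overlapped at 701 to 860 against 676 to 766 CPM for DZNep, where 5 of 10 were called higher. Rlbp1 is in this list and in the Müller glia list, so the 2 sums are not separate. Under DZNep its log2 fold change was -0.47, while 9 of the 10 markers were above 0. Reactive gliosis markers overlapped, at 1245 to 2713 against 2455 to 2930 CPM for Romidepsin, with all 8 log2 fold changes above 0 and none past an adjusted p of 0.05 by edgeR (4 at an unadjusted p under 0.05). They overlapped at 2009 to 3811 against 1027 to 2278 CPM for UNC1999 and at 4497 to 5421 against 4033 to 5180 CPM for UNC0642. For DZNep they were 1112 to 1605 against 1093 to 1102 CPM, and 3 of 8 fell at an adjusted p under 0.05 by edgeR. Log2 fold changes above 0 numbered 1 of 8 for DZNep, 1 for UNC1999 and 3 for UNC0642. Lens markers summed to 73.3 CPM in 1 DZNep retina and to 1.53 CPM in the other. No rod, Müller glia, microglial or pigment epithelium marker was at 0 in all libraries of a retina group. The part of these shifts in the members' values was not tested.

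In the rod comparison the summed markers of cones were 3054 and 4563 CPM in controls and 1676 and 2223 CPM after GSK2879552. Reactive gliosis markers summed to 392 and 495 CPM in controls and 282 and 307 CPM in treated rods. Müller glia markers moved the other way, from 293 and 423 CPM to 476 and 508 CPM, and microglial markers overlapped, at 59.5 and 75.6 against 64.8 and 67.1 CPM. Of 10 markers of the retinal pigment epithelium, 6 were at 0 in both rod controls. Their part in the lower Gadd45b of treated rods was not tested.

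Per length, in CPM per kilobase of exonic bases, the members ranked differently in rods and in whole retina. In control rods the order of mean levels was Btg2 (177), Gadd45a (45.9), Gadd45b (31.3), Gadd45g (3.24) and Cdkn1a (2.09), with Myc under the floor. The ranges of Gadd45a (37.8 to 67.3) and Gadd45b (11.05 to 35.0) over all 4 rod libraries did not overlap, and those of Gadd45g (1.60 to 4.89) and Cdkn1a (1.14 to 5.22) did. In the 12 control retinas Btg2 was at 36.04 to 49.3, Gadd45b at 10.3 to 48.3, Gadd45g at 11.7 to 18.1, Gadd45a at 8.97 to 15.4, Cdkn1a at 2.93 to 10.3 and Myc at 0.296 to 4.13 CPM per kilobase. In this order of medians, the range of every member overlapped that of its neighbour. Within each of the 12 control retinas, however, Btg2 was above Gadd45b, Gadd45a above Cdkn1a, and Cdkn1a above Myc. The order of Gadd45g with Gadd45b and with Gadd45a differed between retinas. Rods were prepared with another library kit, so the scales are set side by side and their difference was not tested.

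**Figure D4:**
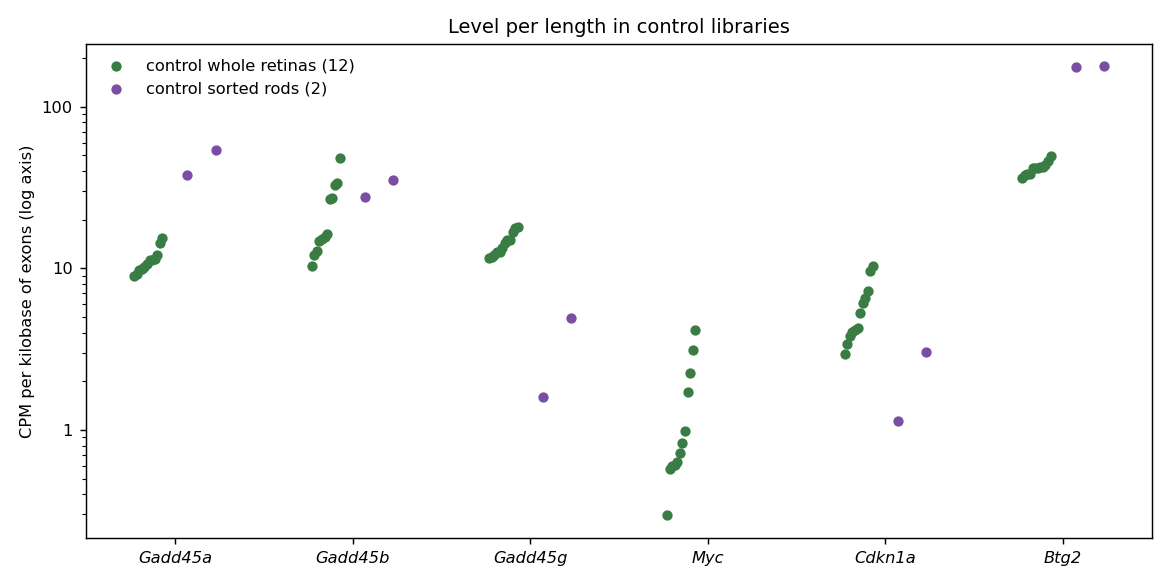
Level of each member per length in control libraries, in CPM per kilobase of exons on a log axis. Green points are the 12 control retinas and purple points the 2 control rod samples, each set in rising order; libraries under 3 counts are left out. Btg2 and Gadd45a lie above, and Gadd45g below, the retina values in rods.

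The genes that followed each member most closely were sought among 17274 genes over the 22 retinas, as Pearson's r of log2 CPM relative to the controls of each experiment. The libraries share experiments and the 3 Romidepsin retinas stand apart, so r over the 16 retinas without that experiment is also given. Treatment differences remain in r, and those 16 retinas still hold the UNC0642 experiment. Gadd45a, Gadd45b and Myc were selected on changes under UNC0642 and Romidepsin, where the study also named Junb. Likeness to these members is therefore not independent of their selection. Gadd45b was most like Junb, an AP-1 subunit (r = 0.979, and 0.938 without Romidepsin), followed by Lrg1 (0.965, 0.820) and Pola2 (0.965, 0.830). Myc was most like Oaf (0.951, 0.931), Uaca (0.950, 0.943) and Tnfrsf12a, the receptor of TWEAK (0.944, 0.915). Cdkn1a was most like Zfp36, which destabilises AU-rich mRNAs (0.915, 0.637), Mcl1 (0.914, 0.787) and the metallothionein gene Mt1 (0.909, 0.664). Gadd45a was most like Loh12cr1 (0.952, 0.937), the keratin gene Krt18 (0.951, 0.961) and Cyth2 (0.939, 0.932). Btg2 was most like Klc3 (0.960, 0.876), Ap1b1 (0.954, 0.789) and Ier3 (0.952, 0.889). Gadd45g was most like Ccm2 (0.902, 0.801), Eif5b (0.876, 0.814) and Slc50a1 (0.874, 0.732).

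Of 140 other genes of the pathways these members belong to, in 8 lists, 135 were tested under DZNep, where 26 were higher and 13 lower at an adjusted p under 0.05 and 3 were called with the fold limit, all lower. These are 28.9% and 2.22% of the pathway genes, against 22.7% and 1.71% of all genes. The list of immediate-early genes, which cells induce within minutes of a stimulus and of which most encode transcription factors, held all 3. Egr1 fell by 1.78 on the log2 scale (SE 0.13, adjusted p = 0.000289, edgeR) and Egr3 fell by 1.46 (SE 0.24, adjusted p = 0.00357, edgeR), and the other was Egr2. Over the 21 immediate-early genes, 2 were higher and 5 lower at an adjusted p under 0.05, with a median log2 fold change of -0.04.

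The list of the BTG and TOB family with subunits of the CCR4-NOT deadenylase and the poly(A)-binding protein gene Pabpc1 had 9 of 12 genes higher under DZNep at an adjusted p under 0.05 and none lower, where 12.9% of all genes were higher and 9.72% lower. Their median log2 fold change was 0.24, with all 12 above 0, against a median of -0.00057 over all genes tested. Of 18 Gadd45 partners and stress kinases 3 were higher and 1 lower, of 26 p53 genes 5 were higher and 3 lower, and of 8 cyclin-dependent kinase inhibitors and retinoblastoma family genes tested 2 were higher. Of 13 Myc and Max network genes 3 were higher and 1 lower, of 20 Myc target genes 2 were higher and 3 lower, and of 17 proliferation genes 0 passed by edgeR, with 3 at an unadjusted p under 0.05 (36.5% of all genes) and their median at 0.02.

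Under Romidepsin 9 of the 139 pathway genes tested (6.47%) were called, all higher and all immediate-early genes. Fosl1 rose by 3.18 on the log2 scale (SE 0.44, adjusted p = 0.0277, edgeR) and Junb by 2.28 (SE 0.31, adjusted p = 0.0277, edgeR). The median of the 21 immediate-early genes was 1.28, against -0.01 over all genes. The study named Fosb, Fosl1 and Junb from these samples, so the list is not independent evidence of that direction. The count of 9 was 0 without control replicate 2, control replicate 3 or treated replicate 3, 2 without control replicate 1 and 17 without treated replicate 1. In the other 7 lists no gene passed under Romidepsin by edgeR, and 9 of 26 p53 genes had an unadjusted p under 0.05 (19.4% of all genes), with a list median of 0.16.

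Under UNC1999, under UNC0642 and in sorted rods none of the 136, 140 and 114 pathway genes tested passed an adjusted p of 0.05 by edgeR's quasi-likelihood test. At an unadjusted p under 0.05 there were 37, 41 and 10, or 27.2%, 29.3% and 8.77%, against 23.6%, 14.7% and 4.91% of all genes. The likelihood ratio test called 8, 1 and 1, and 2.97%, 0.208% and 0.470% of all genes. The median log2 fold change of the immediate-early genes was 0.06 under UNC1999, 0.31 under UNC0642 and -0.04 in rods, where 15 of 21 were tested. Of 18 proliferation genes tested under UNC1999, 10 had an unadjusted p under 0.05 by edgeR. Their median log2 fold change was -0.64, with 1 of 18 above 0. Under UNC0642, 13 of 20 Myc target genes and 9 of 21 immediate-early genes had an unadjusted p under 0.05 by edgeR. The study named Fosb, Fosl1 and Junb as higher under UNC0642 too, so the immediate-early list is not independent evidence there. The median log2 fold change of the Myc target genes was 0.28, with 19 of 20 above 0. In sorted rods, where Gadd45b was lower, the 21 tested p53 genes had a median of 0.04 and the 17 Gadd45 partners one of 0.09.

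**Figure D5:**
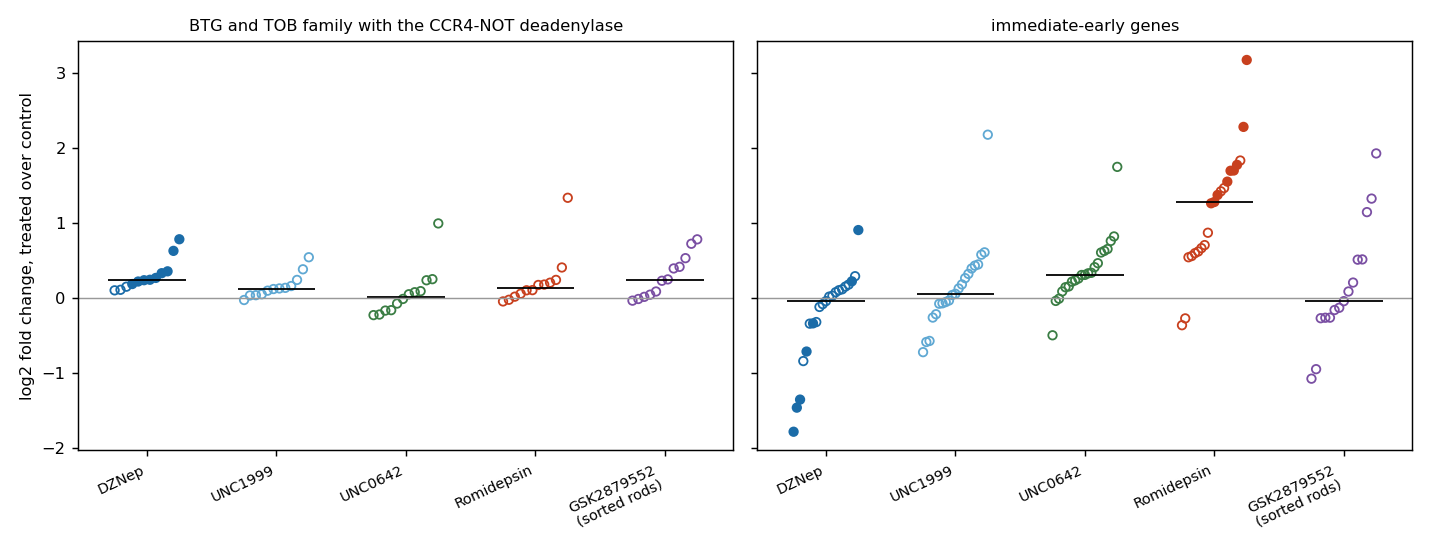
Log2 fold change, treated over control, of each tested gene of 2 lists in the 5 comparisons, each set in rising order. Filled points passed an adjusted p of 0.05, open points did not, and black lines are medians. The BTG, TOB and CCR4-NOT genes have a median of 0.24 under DZNep, and the immediate-early genes one of 1.28 under Romidepsin.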

How the data were processed

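The deposited table held raw counts per Ensembl gene, which the authors made by aligning reads to NCBIM37 with HISAT2 (version 2.2.1) and counting with HTSeq (version 0.11.2). Symbols came from the GENCODE annotation of that build (37205 of 37991 IDs). Groups followed the labels, and all 26 libraries were used. The title's compound name was taken for the UNC1999 retinas, whose other labels count the name up. The members and gene lists were chosen with earlier results of these data known. Each comparison was fitted over all genes with edgeR 4.0.16 (R 4.3.3): filterByExpr, TMM, quasi-likelihood test, Benjamini-Hochberg adjustment, and a call where the adjusted p was under 0.05 and the log2 fold change beyond 1 either way. Named were all 6 members, up to 2 genes higher and 2 lower of the smallest p per list among those called, and the 3 genes most like each member (prior count 2 in log2 CPM). Edn2, Egr2, Fosb, Pabpc1 and the libraries and settings named in the text fall outside that rule and were chosen after their values were seen. The fit was tested on simulated data. No 2 replicates were copies: chi-square per gene was at least 3.72. Alternatives were a likelihood ratio test, DESeq2 1.42.0, RLE scaling, other filters (none, or 10 counts in every library), no fold limit, a replicate block, all 22 retinas in one fit, pooled controls of one library series, and leaving out each library.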

Additional observations from a re-analysis of the deposited data

Results flagged for a closer look

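Gadd45b was higher in every treated retina than in every control under DZNep (log2 fold change 0.55), UNC0642 (0.90) and Romidepsin (2.49), and lower in both treated rod samples than in both controls under GSK2879552 (-1.48). These comparisons differ in compound, in tissue and in library kit, which cannot be told apart, and the difference was not tested.

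Gadd45g was above all controls under UNC0642 (log2 fold change 0.34) and Romidepsin (0.48) and below all controls under DZNep (-0.33). Myc was above all controls under UNC0642 (1.09) and Romidepsin (2.31) and below all controls under DZNep (-0.30). Neither difference was tested. The DZNep value of Myc did not pass its own test, and the adjusted p of Gadd45g was above 0.05 without any of 5 single libraries, with log2 fold changes from -0.49 to -0.22.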

How the results depend on the processing

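No setting turned the direction of a change that passed the test. Counts of members under UNC0642, Romidepsin and in rods follow their selection on those changes and support nothing. Members called: under DZNep 0, and 4 with no fold limit; under UNC0642 0, and 1 by the likelihood ratio test, with no filter and with the replicate block, 2 against 9 pooled controls (all genes 0.208% to 1.14% in these settings), and 0 to 2 on leaving out a library. Under Romidepsin the 1 call became 3 by the likelihood ratio test, DESeq2, with no filter and with all 22 retinas, 2 with 10 counts in every library, with no fold limit, with the block and against 9 controls (all genes 0.567% to 3.10%), and 0 to 3 on leaving out a library. In rods 0 became 1 by the likelihood ratio test, DESeq2 and with no filter (all genes 0.290% to 0.796%), and 0 to 1 on leaving out a library.

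Pathway genes called: under DZNep 3, and 39 with no fold limit, 1 with the replicate block and with all 22 retinas, 2 to 5 on leaving out a library. Under UNC1999 0 became 8 by the likelihood ratio test, 4 by DESeq2, 6 with no filter and with all 22 retinas, and 0 to 10 on leaving out a library. Under UNC0642 0 became 1 by the likelihood ratio test, with no filter and with the block, 6 against 9 controls, and 0 to 1 on leaving out a library. Under Romidepsin 9 became 15 by the likelihood ratio test, DESeq2 and with all 22 retinas, and 0 to 17 on leaving out a library. In rods 0 became 1 by the likelihood ratio test and DESeq2, 5 with no filter and 0 to 9 on leaving out a library. The cause was not tested. Among single genes under DZNep, Gadd45b lost its adjusted p under 0.05 with all 22 retinas (0.326, log2 fold change 0.55) and against 9 controls (0.778, log2 fold change 0.18). Gadd45g lost it with the block (0.247), with all 22 retinas (0.297) and against 9 controls (0.0825), at log2 fold changes of -0.28, -0.33 and -0.52, and Btg2 with the block (0.0753).

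Same-numbered replicates share only a number: the correlation of their deviations from group means ran from -0.279 to 0.230. For the difference of DZNep and UNC1999, a block within each experiment, chosen after seeing the data, left 0 members called. With 2 libraries in an arm, leaving out 1 assumes that the lone library varies like the others.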
